A study of Mus musculus with 24 samples.

Results

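Expression of 10 heat shock genes was followed in RAW264.7 cells, an established mouse macrophage-like line. The genes were the transcription factor gene Hsf1, the Hsp70 genes Hspa1a, Hspa1b and Hspa8, the Hsp110 gene Hsph1, the J-domain gene Dnajb1, the Hsp90 genes Hsp90aa1 and Hsp90ab1, and the chaperonin genes Hspd1 and Hspe1. They were taken by name from the deposited count table, with the transcript of the highest mean standing for each gene, and all 10 were found among its 25160 genes. The cells came from 2 stable lines with a doxycycline-inducible construct, for Nur77 (the nuclear receptor encoded by Nr4a1) in one and for GFP in the other. Both lines were given doxycycline at 50 ng/ml for 18 h, so no group was without doxycycline. The groups were Nur77 cells at 0 h, 1 h and 5 h of lipopolysaccharide (LPS, a bacterial cell wall component, 500 ng/ml), and GFP cells at 0 h, 1 h and 5 h of the same. Each of the 6 groups had 4 libraries. Each construct is represented by 1 stable line, so an effect of the construct cannot be told apart from another difference between the lines. Nothing in the labels says that the libraries of a group came from separate cultures, in which case p-values measure only the spread between these libraries.

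Heat shock proteins are chaperones: they bind unfolded or partly folded proteins and help them fold, assemble or be degraded. In the textbook scheme, HSF1 is held inactive in unstressed cells, is set free and forms trimers when unfolded protein accumulates, and binds heat shock elements, which are inverted repeats of the short unit GAA (TTC on the other strand), in the promoters of chaperone genes. The family holds both constitutive members, such as Hspa8 and Hsp90ab1, and strongly heat-inducible ones, such as Hspa1a and Hspa1b. Macrophages also use chaperones in inflammatory signalling, where Hsp90 has many kinases among its clients.

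RefSeq (GRCm38.p6) promoter windows, from 250 bases before to 50 bases from the transcript start, were at hand for 6 of the 10 genes: Hspa1a, Hspa1b, Hsph1, Dnajb1, Hspd1 and Hspe1. A pair of units, searched as GAANNTTC or TTCNNGAA (each its own reverse complement), was present in 5 of these 6 genes, against 17.0% of the 27025 genes with a window. An array of at least 3 units, searched on both strands as the units GAA, TTC and GAA in turn with 2 bases (NN) between each, was present in 3 of the 6 (Hspd1, Hspe1 and Hsph1), against 0.662% of genes. The array contains the pair motif, so the searches overlap. A match describes the letters and is no measurement of binding. The windows of the near-identical copies Hspa1b and Hspa1a, of Hspe1 and of Hsph1 are shown because the counts given to these genes differed in the data. How reads were split between the copies is uncertain, as described below. Capitals mark heat shock element matches.
Hspa1b chr17:34959189-34959488 (minus strand): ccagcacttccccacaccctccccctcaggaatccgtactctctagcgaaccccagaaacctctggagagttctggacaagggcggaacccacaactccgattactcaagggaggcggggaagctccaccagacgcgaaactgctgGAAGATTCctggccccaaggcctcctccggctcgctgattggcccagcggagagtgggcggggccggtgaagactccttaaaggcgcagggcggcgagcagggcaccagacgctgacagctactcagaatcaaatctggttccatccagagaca
Hspa1a chr17:34972107-34972406 (minus strand): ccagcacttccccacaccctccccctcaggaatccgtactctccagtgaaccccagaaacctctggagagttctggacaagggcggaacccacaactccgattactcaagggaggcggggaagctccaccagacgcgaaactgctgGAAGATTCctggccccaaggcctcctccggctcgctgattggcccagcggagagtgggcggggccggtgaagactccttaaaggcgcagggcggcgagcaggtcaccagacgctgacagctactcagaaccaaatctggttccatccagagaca
Hspe1 chr1:55087898-55088197 (plus strand): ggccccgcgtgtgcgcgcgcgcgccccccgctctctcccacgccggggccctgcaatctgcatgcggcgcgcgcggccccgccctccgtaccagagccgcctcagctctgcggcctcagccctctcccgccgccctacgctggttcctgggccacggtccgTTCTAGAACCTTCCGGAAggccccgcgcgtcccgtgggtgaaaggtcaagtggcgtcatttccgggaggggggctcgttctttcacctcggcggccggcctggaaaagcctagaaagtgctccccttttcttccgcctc
Hsph1 chr5:149636287-149636586 (minus strand): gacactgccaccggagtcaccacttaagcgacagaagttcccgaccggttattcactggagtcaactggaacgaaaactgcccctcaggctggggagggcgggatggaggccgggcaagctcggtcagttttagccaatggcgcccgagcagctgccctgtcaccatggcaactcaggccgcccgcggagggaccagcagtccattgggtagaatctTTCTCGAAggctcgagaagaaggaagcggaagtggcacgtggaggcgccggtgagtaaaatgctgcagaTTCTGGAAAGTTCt
The Hspa1b and Hspa1a windows differed at 4 of 300 bases (T44C, C47T, G249T and T276C, counted from the first base of the window, with the Hspa1b base first), and both held the same pair, whose first base lay 104 bases before the start. In the Hspe1 window 18 bases, beginning 89 bases before the start, formed 1 unbroken array. Hspd1 and Hspe1 are transcribed head to head, with annotated gene bodies that overlap by 96 bases, and an Hspd1 window (chr1:55087883-55088182, minus strand) held the same array read from the other strand. The Dnajb1 windows held neither motif.

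The 24 libraries held between 8137306 and 29279140 estimated counts. In a principal component analysis replicate 2 of Nur77 cells at 1 h lay at -11.6 on the first component, while the other 3 libraries of that group lay between 10.2 and 11.4 and 5 h libraries at -58.3 or below. For 7 of the 10 genes its level was outside the range of those 3, and several results are also given without it. Nr4a1 had 32.9 ± 15.8 CPM in Nur77 cells and 61.8 ± 6.69 CPM in GFP cells at 1 h (SD, n = 4 each), and 3.29 ± 0.408 against 3.07 ± 0.376 CPM at 0 h. The sequence of the construct is not given in the sources used here, so this level does not check the labels. All 8 macrophage markers were above 1 CPM in every group, with sums of 5393 to 7287 CPM in Nur77 libraries and 8746 to 10218 CPM in GFP libraries. The lower sum was not shared by all 8. In the test with scaling by library totals described below, 1 was higher and 3 lower in Nur77 cells at 0 h. At 1 h and at 5 h 2 were higher and 3 lower. Of the 12213 genes tested, 3176 were higher and 1956 lower at 0 h, 2820 and 3268 at 1 h, and 2663 and 2908 at 5 h. All 5 epithelial markers were at 0, as were 4 of 6 lymphocyte and 2 of 6 fibroblast markers, whose sums stayed at or below 0.379 and 0.723 CPM in any library. The 5 neutrophil markers summed to 1.07 to 4.64 CPM in Nur77 libraries and 2.51 to 4.08 CPM in GFP libraries. The part of the lower macrophage marker sum of Nur77 cells in the line differences was not tested. In such bulk RNA, fewer cells of a kind and less RNA per cell cannot be told apart.

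Levels are given in CPM (counts relative to the library total, scaled with TMM factors), and levels of different genes are compared only as CPM per kilobase of transcript. Per kilobase, Hsp90ab1 stood first in all 6 groups, at 923 in Nur77 cells and 1018 in GFP cells at 0 h. At 0 h it was followed in both lines by Hspa8, Hspd1, Hsp90aa1, Hspe1, Hsph1, Hsf1 and Dnajb1. Hspa1b came after these, at 0.131 in Nur77 cells and 0.146 in GFP cells at 0 h. The order was the same in 5 groups. In GFP cells at 5 h, Hspa8 fell to the fourth place with 371 CPM per kb, behind Hsp90aa1 (477) and Hspd1 (410). Neighbours in the order overlapped in 2 cases: Hspa8 and Hspd1 in Nur77 cells at 1 h, and Hsf1 and Dnajb1 in GFP cells at 1 h. Without TMM factors, the 10 genes together took 0.623% of the library total in Nur77 cells and 0.655% in GFP cells at 0 h, 0.658% and 0.659% at 1 h, and 0.635% and 0.608% at 5 h.

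**Figure D1:**
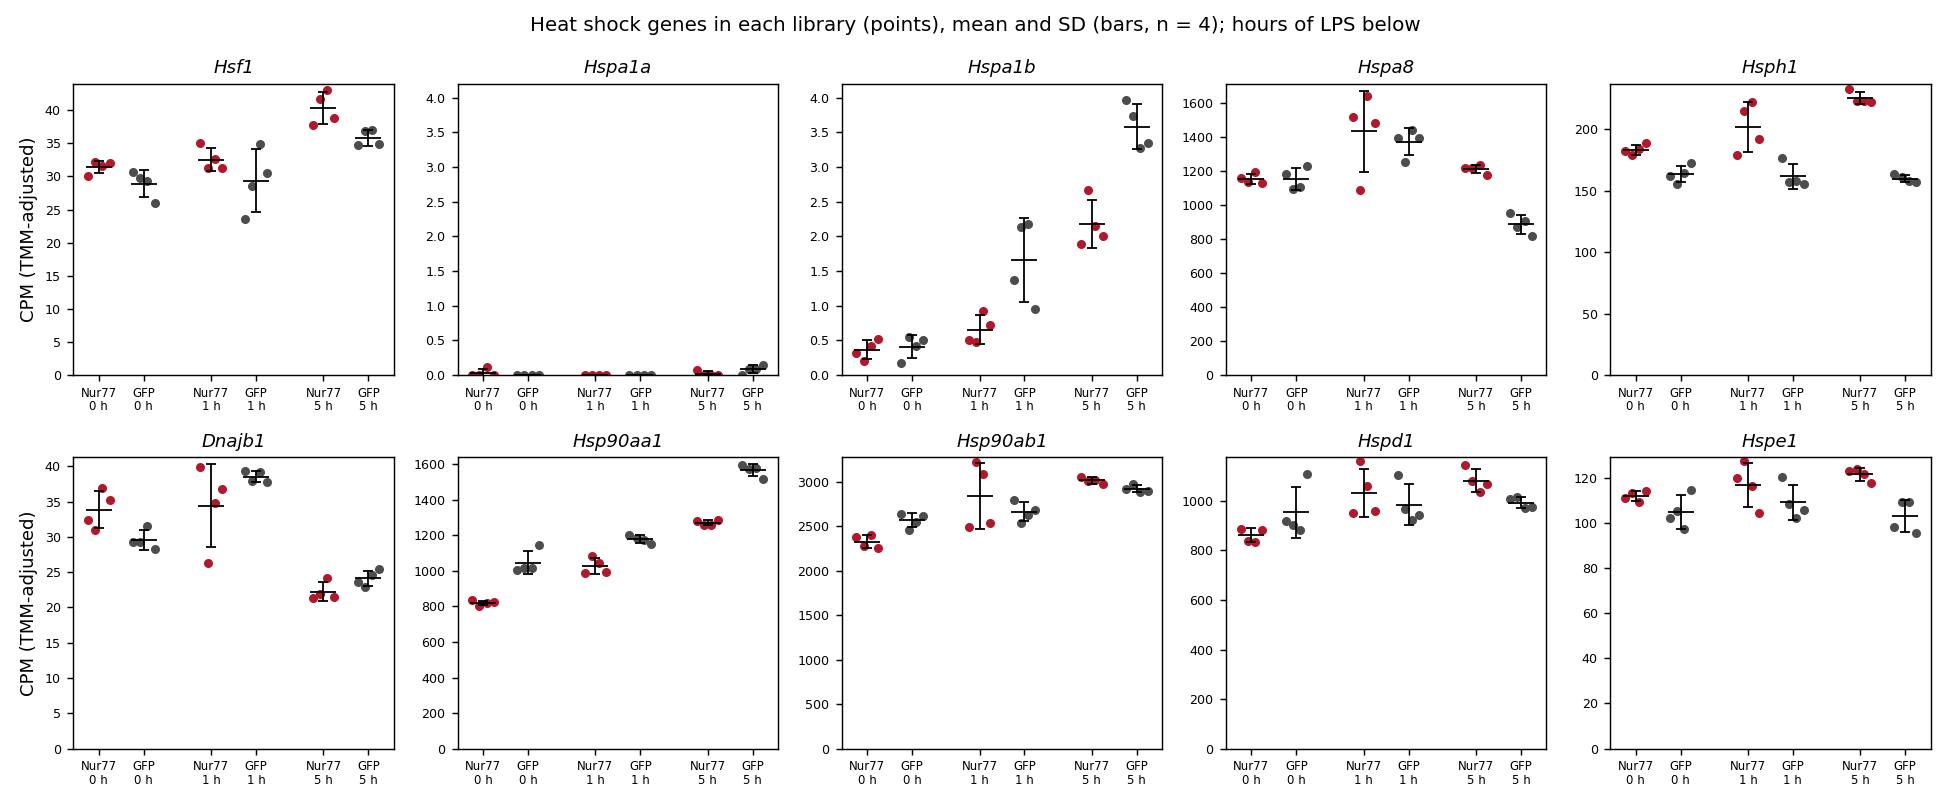
CPM of each of the 10 genes (vertical axis from 0, own scale per gene) in each library (points, Nur77 red, GFP grey) with the mean and SD of the 4 libraries of a group (black). Hspa1b and Hspa1a share a scale: Hspa1b reached 3.97 CPM in a GFP library at 5 h, while Hspa1a stayed near 0, and Hspa8 and Dnajb1 show a low point in Nur77 cells at 1 h that is replicate 2.

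Differences were tested with edgeR's quasi-likelihood test on all 12213 genes that passed the filter on low counts, and a gene was called at a Benjamini-Hochberg adjusted p under 0.05. Every adjusted p in the text comes from this test unless another tool is named. Of the 10 genes 9 could be tested, and Hspa1a did not pass the filter. Between the lines, 2 of 9 were called at 0 h (Hsph1 higher, Hsp90aa1 lower in Nur77 cells), where 39.8% of all genes tested were called (20.2% higher and 19.7% lower). Of those called 50.6% were higher, and 61.9% with the scaling by library totals described below. At 1 h 3 of 9 were called (Hsph1 higher, Hspa1b and Hsp90aa1 lower), where 51.2% of all genes were (26.5% higher and 24.8% lower). At 5 h 5 of 9 were called (Hspa8, Hsph1 and Hspe1 higher, Hspa1b and Hsp90aa1 lower), where 46.4% of all genes were (21.9% higher and 24.4% lower). At 5 h the share of the heat shock genes called was near that of all genes, and at 0 h and 1 h it was below it. The median log2 fold change of the 9 was 0.00069, 0.07 and 0.12 at 0 h, 1 h and 5 h, beside 0.02, 0.0056 and 0.0023 over all genes tested.

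The LPS comparisons depended on the scaling. TMM factors, which set each library against the bulk of its genes, averaged 1.13, 0.982 and 0.908 in Nur77 libraries and 1.08, 1.01 and 0.910 in GFP libraries at 0 h, 1 h and 5 h. With a scaling by library totals alone, an alternative chosen after seeing the data, the median log2 fold change of all genes tested at 5 h against 0 h was -0.34 in Nur77 cells and -0.27 in GFP cells, and at 1 h against 0 h it was -0.22 and -0.12. Between the lines it was 0.08, -0.03 and 0.00052 at 0 h, 1 h and 5 h, and there no heat shock gene changed sign. Rises and falls with LPS are therefore changes relative to the bulk of genes. The value by library totals stands beside each LPS change given here that lost its call or turned its direction under that scaling.

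**Figure D2:**
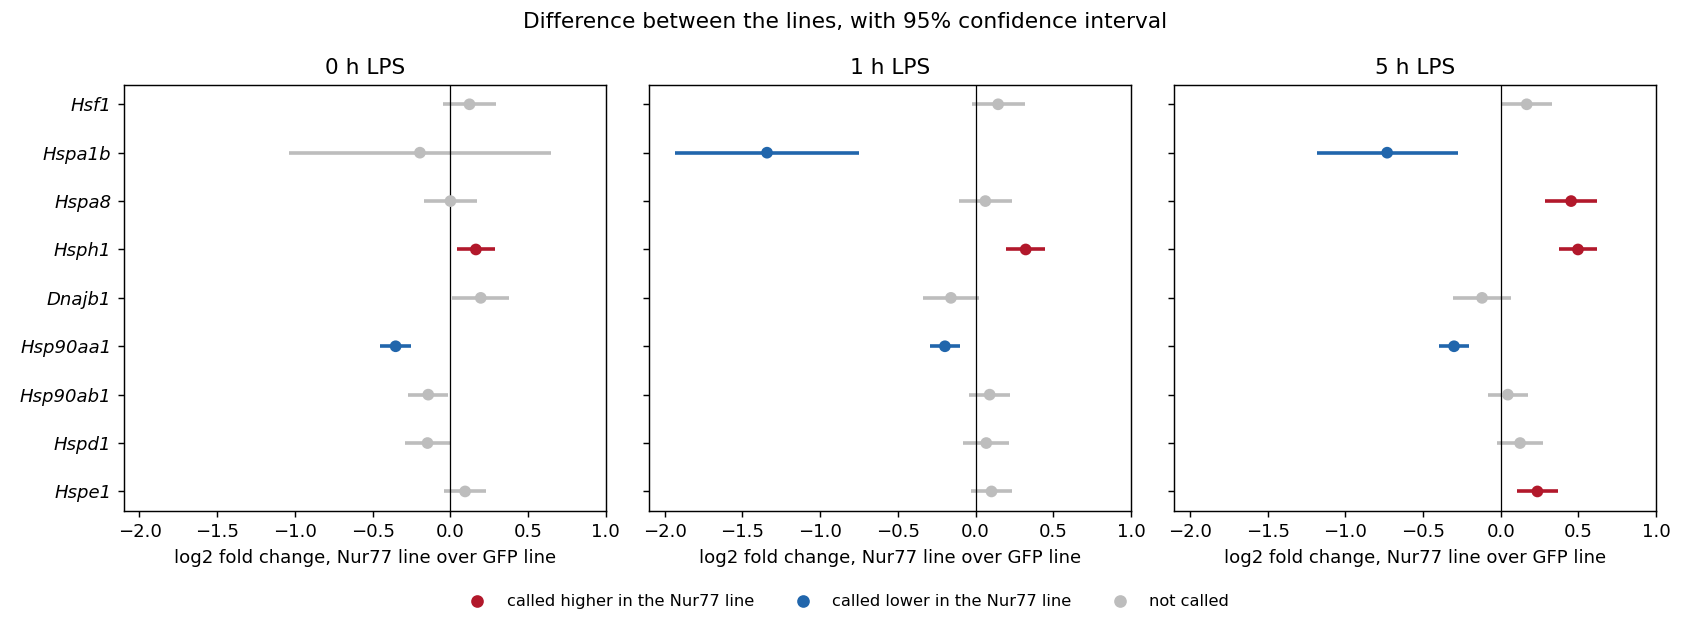
Log2 fold change of Nur77 over GFP cells (horizontal axis) with its 95% confidence interval for the 9 genes tested, at 0 h, 1 h and 5 h of LPS (red, called higher in Nur77 cells; blue, called lower; grey, not called). Hsp90aa1 lies left of 0 at each time and Hsph1 right of 0, with Hsph1 at 0.16, 0.32 and 0.50. Hspa1b also lies left of 0 at each time, but at 0 h its interval spans 0 (-1.04 to 0.65) and it is not called.

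The inducible Hsp70 gene Hspa1b (NM_010478, chromosome 17, 34956429 to 34959238) had the largest LPS response of the 9 genes tested, in both lines. It had 0.322, 0.206, 0.416 and 0.519 CPM in Nur77 cells at 0 h, 0.50, 0.471, 0.916 and 0.717 CPM at 1 h, and 1.88, 2.66, 2.15 and 2.0 CPM at 5 h. It had 0.169, 0.547, 0.421 and 0.497 CPM in GFP cells at 0 h, 1.37, 2.14, 2.18 and 0.952 CPM at 1 h, and 3.97, 3.74, 3.28 and 3.34 CPM at 5 h. The lines overlapped at 0 h and did not overlap at 1 h or at 5 h, when every GFP library was above every Nur77 library. The values rest on 2 to 84 counts per library.

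Hspa1b was higher at 5 h than at 0 h by a log2 fold change of 2.52 in Nur77 cells (SE 0.32, adjusted p = 1.58e-07) and of 3.05 in GFP cells (SE 0.28, adjusted p = 4.78e-10). At 1 h against 0 h the change was 0.81 in Nur77 cells (SE 0.38, adjusted p = 0.0838) and not called, while in GFP cells it was 1.96 (SE 0.31, adjusted p = 3.1e-05). These 2 responses were not shown to differ: the log2 difference of the 1 h response, Nur77 minus GFP, was -1.15 (95% interval -2.20 to -0.09, adjusted p = 0.217), and that of the 5 h response -0.53 (-1.52 to 0.45, adjusted p = 0.568). The line difference itself was called at 1 h (-1.34, SE 0.29, adjusted p = 0.000421; -1.24, adjusted p = 0.00144, without replicate 2 of Nur77 cells) and at 5 h (-0.73, SE 0.22, adjusted p = 0.00824), and not at 0 h (-0.20, 95% interval -1.04 to 0.65).

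Hspa1a (NM_010479, chromosome 17, 34969359 to 34972156), the neighbouring copy with the near-identical promoter window shown above, had a count in 5 of 24 libraries, never above 2. No count fell on it in Nur77 cells at 1 h or in GFP cells at 0 h and 1 h; 3 counts over the group would be 0.0411, 0.0414 and 0.0505 CPM, which covers counting error only. In GFP cells at 5 h it had 0, 0.0890, 0.0910 and 0.148 CPM. Of the 50-base stretches of the Hspa1b transcript 62.3% also occur in Hspa1a, and how reads that match both copies were assigned is not given in the sources used here, so the split between the copies is uncertain. With their counts summed the gene pair gave the same calls, with log2 fold changes of -1.34 at 1 h and -0.75 at 5 h between the lines.

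Hspa8 (NM_031165, chromosome 9, 40801276 to 40805202) encodes the constitutive cytosolic Hsp70, which works in routine folding and in uncoating clathrin. It had 1158, 1134, 1197 and 1129 CPM in Nur77 cells and 1186, 1096, 1106 and 1228 CPM in GFP cells at 0 h. At 5 h it had 1221, 1220, 1238 and 1180 CPM in Nur77 cells, against 954, 873, 905 and 817 CPM in GFP cells. The lines overlapped at 0 h, and at 5 h every GFP library was below every Nur77 library.

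The 5 h line difference of Hspa8 was 0.45 on the log2 scale (SE 0.08, adjusted p = 6.24e-05). At 5 h against 0 h its change in Nur77 cells was 0.07 (SE 0.08, adjusted p = 0.442; 0.08 and called in a fit of the groups compared alone, adjusted p = 0.0460), which by library totals turned to -0.24 and was called (adjusted p = 0.0195). In GFP cells it fell by 0.38 (SE 0.08, adjusted p = 0.000268). These responses differed between the lines: the log2 difference of the 5 h response was 0.45 (SE 0.12, adjusted p = 0.0146), and adjusted p lay between 7.6e-05 and 0.0393 in the 17 fits that each left out 1 library. By library totals the difference was 0.39 and not called (adjusted p = 0.0551). At 1 h Hspa8 was higher than at 0 h in both lines, by 0.31 in Nur77 cells (SE 0.08, adjusted p = 0.00331) and by 0.25 in GFP cells (SE 0.08, adjusted p = 0.0336), neither called by library totals (0.12, adjusted p = 0.271, and 0.15, adjusted p = 0.248).

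In that early response of Hspa8, Nur77 libraries at 1 h had 1518, 1092, 1643 and 1487 CPM and GFP libraries 1396, 1257, 1443 and 1398 CPM. The low value, 1092 CPM, is that of replicate 2. Without it the line difference at 1 h was 0.17 and was called (adjusted p = 0.0110), against 0.06 with it (adjusted p = 0.537). The rise in Nur77 cells was then 0.42 (adjusted p = 7.22e-07), and the difference of the 1 h responses was 0.17 (adjusted p = 0.239), against 0.06 with it (adjusted p = 0.797; -0.03 by library totals). The call in Nur77 cells was lost in a fit of the groups compared alone (0.32, adjusted p = 0.0530). That in GFP cells was lost in 6 of the 8 fits that each left out a GFP library (GFP 0 h replicates 1, 2 and 3, GFP 1 h replicates 1, 3 and 4; adjusted p up to 0.100). From 1 h to 5 h Hspa8 fell by 0.24 in Nur77 cells (SE 0.08, adjusted p = 0.0150) and by 0.63 in GFP cells (SE 0.08, adjusted p = 4.02e-07). The call in Nur77 cells was lost without replicate 3 of 1 h (-0.17, adjusted p = 0.0867) and in a fit of those groups alone (adjusted p = 0.134). Without replicate 2 the fall was larger (-0.35, adjusted p = 4.74e-06). Of the 50-base stretches of the transcript 74.8% also occur in other annotated genes, among them Gm15459, so reads of such copies may be counted in its level.

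Hsph1 (NM_013559, chromosome 5, 149616843 to 149636498) encodes Hsp110, the nucleotide exchange factor that resets Hsp70 after each folding cycle. At 5 h it had 233, 223, 223 and 222 CPM in Nur77 cells and 163, 161, 158 and 157 CPM in GFP cells. At 0 h it had 182, 179, 184 and 189 CPM in Nur77 cells and 162, 156, 164 and 172 CPM in GFP cells. The lines did not overlap at either time, and at 1 h Nur77 libraries (179 to 223 CPM) again lay above GFP libraries (155 to 177 CPM).

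Between the lines Hsph1 was higher in Nur77 cells by 0.16 at 0 h (SE 0.06, adjusted p = 0.0307), by 0.32 at 1 h (SE 0.06, adjusted p = 8.28e-05) and by 0.50 at 5 h (SE 0.06, adjusted p = 1.76e-07). The 0 h call was lost without any one of GFP replicates 1 to 3 or Nur77 replicates 1 to 4 of that time (0.14 to 0.17, adjusted p up to 0.110) and with no filter on low counts (adjusted p = 0.0541). At 5 h against 0 h Hsph1 rose by 0.30 in Nur77 cells (SE 0.06, adjusted p = 0.000102), while the change in GFP cells was -0.03 (SE 0.06, adjusted p = 0.634). By library totals these changes were -0.015 in Nur77 cells, a turned direction that was not called (adjusted p = 0.799), and -0.29 in GFP cells, which was called (adjusted p = 1.59e-05). The log2 difference of these responses was 0.33 (SE 0.08, adjusted p = 0.0136), and adjusted p lay between 0.00417 and 0.0316 when 1 library was left out; by library totals it was 0.27 and called (adjusted p = 0.0150). From 1 h to 5 h in Nur77 cells Hsph1 rose by 0.16 (SE 0.06, adjusted p = 0.0266). This call was lost without replicate 1 (0.09, adjusted p = 0.172) or replicate 4 (0.13, adjusted p = 0.102) of 1 h, without replicate 1 of 5 h (0.14, adjusted p = 0.0722), in a fit of those groups alone (adjusted p = 0.103) and by library totals (0.05, adjusted p = 0.401). In GFP cells that change was -0.02 (adjusted p = 0.839), and by library totals -0.16 and called (adjusted p = 0.00681). At 1 h against 0 h in Nur77 cells the change of 0.14 was not called (adjusted p = 0.0583), but was with DESeq2 (0.15, DESeq2 adjusted p = 0.0339) and without replicate 1 or 4 of 1 h (0.20, adjusted p = 0.00377, and 0.17, adjusted p = 0.0356). By library totals it was -0.07 (adjusted p = 0.269). No 50-base stretch of its transcript occurs in another annotated gene.

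Dnajb1 (NM_018808, chromosome 8, 83608175 to 83612653) encodes Hsp40, the J-domain protein that hands clients to Hsp70 and stimulates its ATPase. It had 32.4, 31.0, 36.9 and 35.1 CPM at 0 h, 39.9, 26.2, 34.8 and 36.8 CPM at 1 h and 21.3, 21.9, 24.2 and 21.4 CPM at 5 h in Nur77 cells. It had 29.2, 29.2, 31.6 and 28.2 CPM at 0 h, 39.3, 37.9, 39.2 and 37.8 CPM at 1 h and 23.6, 22.9, 24.6 and 25.4 CPM at 5 h in GFP cells. All 5 h libraries of a line were below all its 0 h libraries, and the 1 h libraries of GFP cells were above all others of that line.

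Dnajb1 at 5 h fell by 0.61 against 0 h in Nur77 cells (SE 0.09, adjusted p = 2.03e-06) and by 0.29 in GFP cells (SE 0.09, adjusted p = 0.00594). At 1 h its change in Nur77 cells was 0.03 (SE 0.09, adjusted p = 0.830; 0.13, adjusted p = 0.131, without replicate 2), while it rose by 0.38 in GFP cells (SE 0.09, adjusted p = 0.00275). By library totals these changes were -0.17 in Nur77 cells (adjusted p = 0.168) and 0.28 in GFP cells, neither called (adjusted p = 0.0538 in GFP cells). The log2 differences of the responses were -0.35 at 1 h (95% interval -0.61 to -0.10, adjusted p = 0.125) and -0.32 at 5 h (-0.58 to -0.05, adjusted p = 0.140), neither called. Without replicate 1 of Nur77 cells at 1 h the 1 h difference was called (-0.43, adjusted p = 0.0222). Without replicate 2 of that group it was -0.25 and not called (adjusted p = 0.181), while the 5 h one was called (-0.32, adjusted p = 0.0237). From 1 h to 5 h Dnajb1 fell by 0.64 in Nur77 cells and by 0.68 in GFP cells (SE 0.09 each, adjusted p = 1.49e-06 and 5.28e-07). The line difference was called at no time (0.20, -0.16 and -0.12 at 0 h, 1 h and 5 h, adjusted p = 0.0835, 0.138 and 0.297). It was called at 0 h without replicate 2 of Nur77 cells at 1 h (0.20, adjusted p = 0.0160) and at 1 h without replicate 1 of that group (-0.25, adjusted p = 0.0201). Without replicate 2 the 1 h line difference was -0.05 (adjusted p = 0.577).

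**Figure D3:**
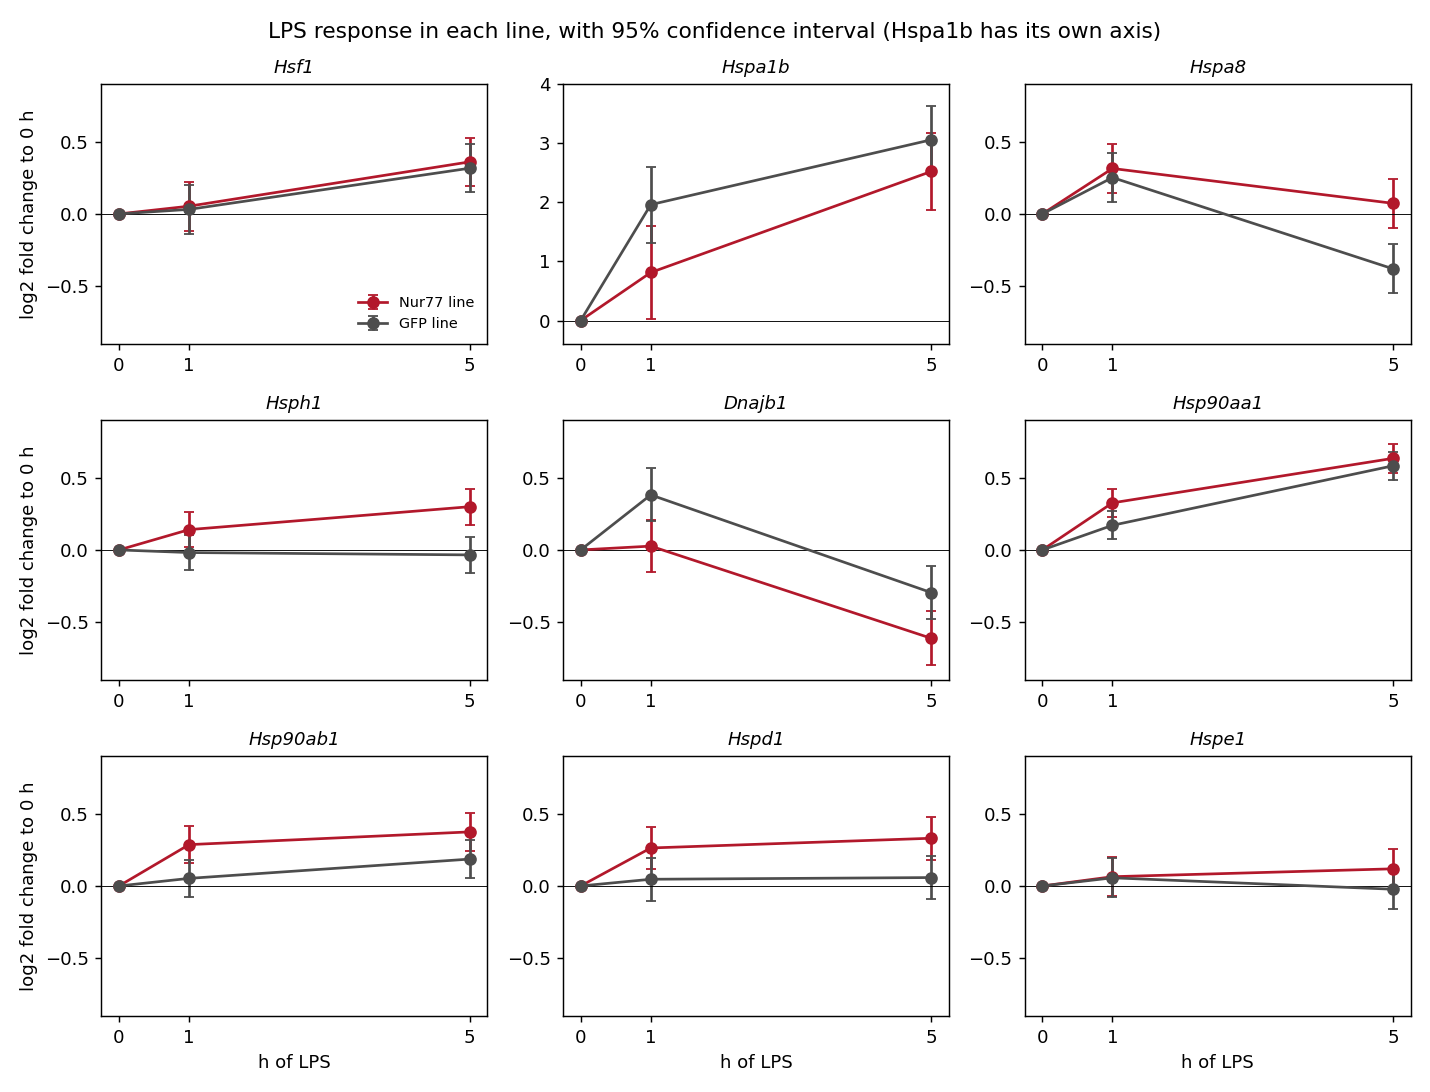
Log2 fold change to 0 h (vertical axis) at 1 h and 5 h of LPS in Nur77 cells (red) and GFP cells (grey) for the 9 genes tested, with 95% confidence intervals; Hspa1b has a wider axis. The lines separate at 5 h for Hspa8 (0.07 in Nur77 cells, -0.38 in GFP cells) and Hsph1 (0.30 and -0.03), and lie within each other's intervals there for Hsf1 and Hsp90aa1. By library totals alone these 5 h values were -0.24 and -0.63 for Hspa8 and -0.015 and -0.29 for Hsph1.

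The Hsp90 genes encode the inducible (Hsp90aa1) and constitutive (Hsp90ab1) cytosolic forms of the chaperone that matures kinases and nuclear receptors. Hsp90aa1 (NM_010480, chromosome 12, 110691036 to 110696395) had 834, 804, 817 and 825 CPM in Nur77 cells and 1007, 1018, 1014 and 1147 CPM in GFP cells at 0 h. At 5 h it had 1282, 1259, 1260.0 and 1284 CPM in Nur77 cells, against 1594, 1571, 1579 and 1518 CPM in GFP cells. Every Nur77 library was below every GFP library at 0 h and at 5 h, and also at 1 h (988 to 1083 CPM in Nur77 cells, 1151 to 1204 CPM in GFP cells).

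Hsp90aa1 was lower in Nur77 cells by log2 fold changes of -0.35 at 0 h (SE 0.05, adjusted p = 1.39e-06), -0.20 at 1 h (SE 0.05, adjusted p = 0.00126) and -0.30 at 5 h (SE 0.05, adjusted p = 1.05e-05). The 1 h call was lost in a fit of those 8 libraries alone (-0.20, adjusted p = 0.0559). It rose at 5 h against 0 h by 0.63 in Nur77 cells and by 0.58 in GFP cells (SE 0.05 each, adjusted p = 1.26e-11 and 6.66e-11). At 1 h it had risen by 0.33 in Nur77 cells (SE 0.05, adjusted p = 5.04e-06) and by 0.17 in GFP cells (SE 0.05, adjusted p = 0.0120), which in GFP cells was not called by library totals (0.07, adjusted p = 0.285). Without GFP replicate 4 of 0 h, the highest of that group, the line difference at 0 h was -0.31 (adjusted p = 7.02e-06) and the 1 h rise in GFP cells 0.22 (adjusted p = 0.000987). The log2 difference of the 5 h responses was 0.05 (95% interval -0.09 to 0.19, adjusted p = 0.709; -0.0088 by library totals). Of the 50-base stretches of the transcript 58.5% also occur in other annotated genes, chiefly Gm12346.

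Hsp90ab1 (NM_008302, chromosome 17, 45567778 to 45573261) had 2326 ± 71.6 CPM in Nur77 cells and 2566 ± 81.5 CPM in GFP cells at 0 h, and 3013 ± 35.6 and 2919 ± 40.0 CPM at 5 h (SD, n = 4 each). At 5 h against 0 h it rose by 0.37 in Nur77 cells (SE 0.06, adjusted p = 1.23e-05) and by 0.19 in GFP cells (SE 0.06, adjusted p = 0.0129), but by library totals neither was called (0.06, adjusted p = 0.290, and, turned in direction, -0.07, adjusted p = 0.237). At 1 h it rose by 0.29 in Nur77 cells (SE 0.06, adjusted p = 0.000773), where replicates 2 and 3 had 3224 and 3082 CPM and replicates 1 and 4 had 2495 and 2538 CPM, while the change in GFP cells was 0.05 (adjusted p = 0.678). By library totals these changes were 0.08 in Nur77 cells, not called (adjusted p = 0.198), and -0.05 in GFP cells (adjusted p = 0.483). The line difference of Hsp90ab1 was not called at 0 h (-0.14, adjusted p = 0.0766), 1 h (0.09, adjusted p = 0.235) or 5 h (0.05, adjusted p = 0.578), although the lines did not overlap at 0 h. It was called at 0 h in a fit of those libraries alone (-0.17, adjusted p = 0.00286) and without replicate 2 of Nur77 cells at 1 h (-0.14, adjusted p = 0.0238). At 1 h it was called without replicate 1 of that group (0.14, adjusted p = 0.0451), and without replicate 2 it was 0.02 (adjusted p = 0.742). Without replicate 1 the difference of the 1 h responses was also called (0.29, adjusted p = 0.0191), against 0.23 and adjusted p = 0.153 with all libraries and 0.17 and adjusted p = 0.249 without replicate 2. The change of Hsp90ab1 from 1 h to 5 h was called in neither line (0.09 in Nur77 cells, adjusted p = 0.247, and 0.13 in GFP cells, adjusted p = 0.0765), and in both without replicate 2 of Nur77 cells at 1 h (0.16, adjusted p = 0.0170, and 0.13, adjusted p = 0.0259). By library totals it was -0.02 in both (adjusted p = 0.793 and 0.811).

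Hspd1 (NM_001356512, chromosome 1, 55077833 to 55088243) and Hspe1 (NM_008303, chromosome 1, 55088148 to 55091317) encode Hsp60 and its lid Hsp10, which form the folding chamber of the mitochondrial matrix. Hspd1 had 888, 839.5, 835 and 881 CPM at 0 h and 1143, 1081, 1036 and 1068 CPM at 5 h in Nur77 cells. It had 918, 904, 883 and 1108 CPM at 0 h and 1009, 1014, 973 and 974 CPM at 5 h in GFP cells. The 2 times did not overlap in Nur77 cells and did in GFP cells, where replicate 4 of 0 h was the highest library.

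Hspd1 rose in Nur77 cells by 0.26 at 1 h (SE 0.07, adjusted p = 0.00471) and by 0.33 at 5 h (SE 0.07, adjusted p = 0.00027), against changes of 0.05 and 0.06 in GFP cells (adjusted p = 0.761 and 0.495). By library totals the changes in Nur77 cells were 0.06 and 0.02 and not called (adjusted p = 0.451 and 0.820), while those in GFP cells were -0.06 at 1 h (adjusted p = 0.519) and, turned in direction and called, -0.19 at 5 h (adjusted p = 0.00668). Without GFP replicate 4 of 0 h, the changes in GFP cells were 0.13 and 0.14 (adjusted p = 0.220 and 0.0764). Without replicate 2 of Nur77 cells at 1 h, the 1 h rise was 0.20 (adjusted p = 0.0183). The log2 difference of the 5 h responses was 0.27 (95% interval 0.06 to 0.48) and was not called (adjusted p = 0.107), but was without replicate 2 of Nur77 cells at 1 h (0.27, adjusted p = 0.0394). Without GFP replicate 4 of 0 h it was 0.19 (adjusted p = 0.242). The line difference of Hspd1 was called at no time (-0.15, 0.07 and 0.12 at 0 h, 1 h and 5 h; adjusted p = 0.109, 0.435 and 0.160), except at 5 h in a fit of those libraries alone (0.12, adjusted p = 0.00930). The 0 h value was -0.07 without GFP replicate 4 (adjusted p = 0.464), and the 1 h value 0.01 without replicate 2 of Nur77 cells (adjusted p = 0.920).

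Hspe1 had 123, 124, 121 and 117 CPM in Nur77 cells at 5 h, against 98.1, 109, 109 and 95.7 CPM in GFP cells, with no overlap. The 5 h line difference was 0.24 (SE 0.07, adjusted p = 0.00433), while at 0 h it was 0.10 (adjusted p = 0.264; 0.15 and called by library totals, adjusted p = 0.0465) and at 1 h 0.10 (adjusted p = 0.193; 0.06, adjusted p = 0.448, without replicate 2 of Nur77 cells). No LPS comparison called Hspe1: its changes at 5 h against 0 h were 0.12 in Nur77 cells (adjusted p = 0.112) and -0.02 in GFP cells (adjusted p = 0.779), and the first was called in a fit of those groups alone (adjusted p = 0.0152). By library totals both were called lower, at -0.20 in Nur77 cells (adjusted p = 0.00642) and -0.28 in GFP cells (adjusted p = 0.00029), as was the change from 1 h to 5 h in GFP cells (-0.23, adjusted p = 0.00259). Of the 50-base stretches of Hspd1 and Hspe1 44.8% each also occur in other annotated genes, mainly Hspd1-ps3 for Hspd1 and AC117239.2 for Hspe1.

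Hsf1 (NM_001331152, chromosome 15, 76477362 to 76501155), the factor that binds the elements shown above, had 37.8, 41.7, 43.1 and 38.9 CPM at 5 h in Nur77 cells, against 30.05, 32.1, 31.5 and 32.0 CPM at 0 h. In GFP cells it had 34.8, 36.8, 37.0 and 34.9 CPM at 5 h, against 30.6, 29.8, 29.3 and 25.9 CPM at 0 h. The times did not overlap in either line. The rise was 0.36 in Nur77 cells (SE 0.08, adjusted p = 0.000422) and 0.32 in GFP cells (SE 0.08, adjusted p = 0.00151), with a log2 difference of 0.04 (95% interval -0.19 to 0.28, adjusted p = 0.871; -0.02 by library totals). By library totals the rise was called in neither line (0.05, adjusted p = 0.662, and 0.06, adjusted p = 0.555). At 1 h neither line called it (0.05, adjusted p = 0.624, and 0.03, adjusted p = 0.874; -0.15 and -0.07 by library totals). From 1 h to 5 h it rose by 0.31 in Nur77 cells (adjusted p = 0.00234) and by 0.28 in GFP cells (adjusted p = 0.00476), where it was 0.19 without replicate 1 of 1 h (adjusted p = 0.0352). By library totals these were 0.19 and 0.13 and not called (adjusted p = 0.0722 and 0.220). Between the lines Hsf1 was not called (0.12, 0.15 and 0.17 at 0 h, 1 h and 5 h; adjusted p = 0.250, 0.144 and 0.0914), except at 1 h without GFP replicate 3 (0.23, adjusted p = 0.0198) and at 5 h in a fit of those libraries alone (0.16, adjusted p = 0.0230). Activation of HSF1 acts on the protein and is not measured by its transcript.

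Counted over the LPS comparisons, 4 of the 9 genes rose and none fell at 1 h in Nur77 cells (44.3% of all genes called, 22.5% higher and 21.8% lower). In GFP cells at 1 h it was again 4 and none (17.4%, with 9.74% higher and 7.63% lower), with Hspa8 and Hsp90aa1 called in both lines, Hsp90ab1 and Hspd1 in Nur77 cells, and Hspa1b and Dnajb1 in GFP cells. At 5 h against 0 h, 6 rose and Dnajb1 fell in Nur77 cells (66.6% of all genes called, 32.5% higher and 34.1% lower), while 4 rose and Hspa8 and Dnajb1 fell in GFP cells (62.6%, with 30.6% higher and 31.9% lower). At 5 h against 1 h, 4 rose and 2 fell in Nur77 cells (55.5%, with 26.9% higher and 28.6% lower) and 3 rose and 2 fell in GFP cells (55.2%, with 27.5% higher and 27.7% lower).

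By library totals, 1 of the 9 rose at 1 h in each line (Hsp90aa1 in Nur77 cells, Hspa1b in GFP cells). Of the 12213 genes tested, 1300 were then higher and 5501 lower in Nur77 cells, and 803 and 2028 in GFP cells. At 5 h against 0 h, 2 rose in each line, Hsp90aa1 and Hspa1b. In Nur77 cells 3 fell (Dnajb1, Hspa8 and Hspe1), and in GFP cells 5 fell (these 3, Hspd1 and Hsph1). Over all genes tested, 2057 were higher and 6770 lower in Nur77 cells, and 2218 and 6272 in GFP cells. From 1 h to 5 h, 2 rose and 2 fell in Nur77 cells, and 2 rose and 4 fell in GFP cells. Over all genes tested it was 2350 higher and 4492 lower in Nur77 cells, and 2243 and 4828 in GFP cells. That scaling also moved the balance over all genes: of those called at 1 h against 0 h, 19.1% were higher in Nur77 cells and 28.4% in GFP cells, against 50.9% and 56.1% with TMM. For 5 h against 0 h it was 23.3% and 26.1%, against 48.8% and 49.0% with TMM, and at 5 h against 1 h 34.3% and 31.7%, against 48.5% and 49.9%. Hspa1b and Hsp90aa1 rose and Dnajb1 fell at 5 h against 0 h in both lines under either scaling.

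The median log2 fold change of the 9 genes at 5 h against 0 h was 0.33 in Nur77 cells and 0.06 in GFP cells, beside -0.03 and -0.02 over all genes tested. By library totals it was 0.02 and -0.19, beside -0.34 and -0.27. The 1 h response differed between the lines for 0 of 9 genes (1.18% of all genes called, 0.63% higher and 0.549% lower), in edgeR, where 5 of 9 had an unadjusted p under 0.05. It differed for 0 of the 8 that had an adjusted p in DESeq2 (Hspa1b had none). The 5 h response differed for 2 of 9, Hspa8 and Hsph1 (7.94% of all genes called, 2.81% higher and 5.13% lower). Of all genes called, 53.5% had a higher 1 h response and 35.4% a higher 5 h response in Nur77 cells, and 23.9% and 22.1% by library totals.

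Ratios between partner genes within a library do not depend on library scaling; the pairs were chosen after their values were seen, so they are described with no test. The ratio of Hsp90aa1 to Hsp90ab1, per kilobase, was 0.269, 0.271, 0.262 and 0.281 in Nur77 cells and 0.293, 0.318, 0.305 and 0.336 in GFP cells at 0 h. At 5 h it was 0.322, 0.322, 0.320 and 0.332 in Nur77 cells and 0.419, 0.406, 0.421 and 0.402 in GFP cells. The ratio was thus lower in every Nur77 library than in every GFP library at both times, and at 1 h as well (0.258 to 0.304 in Nur77 cells, 0.329 to 0.359 in GFP cells). Within each line every 5 h library was above every 0 h library. The ratio of Hspe1 to Hspd1 averaged 0.407 ± 0.0125 in Nur77 cells and 0.345 ± 0.0168 in GFP cells at 0 h without overlap, and 0.352 ± 0.0139 and 0.325 ± 0.0230 at 5 h with overlap (SD, n = 4 each). The ratio of Dnajb1 to Hspa8, the J-domain partner to its Hsp70, was 0.0146 ± 0.000721 in Nur77 cells and 0.0218 ± 0.00215 in GFP cells at 5 h, against 0.0234 ± 0.00156 and 0.0205 ± 0.00193 at 0 h.

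**Figure D4:**
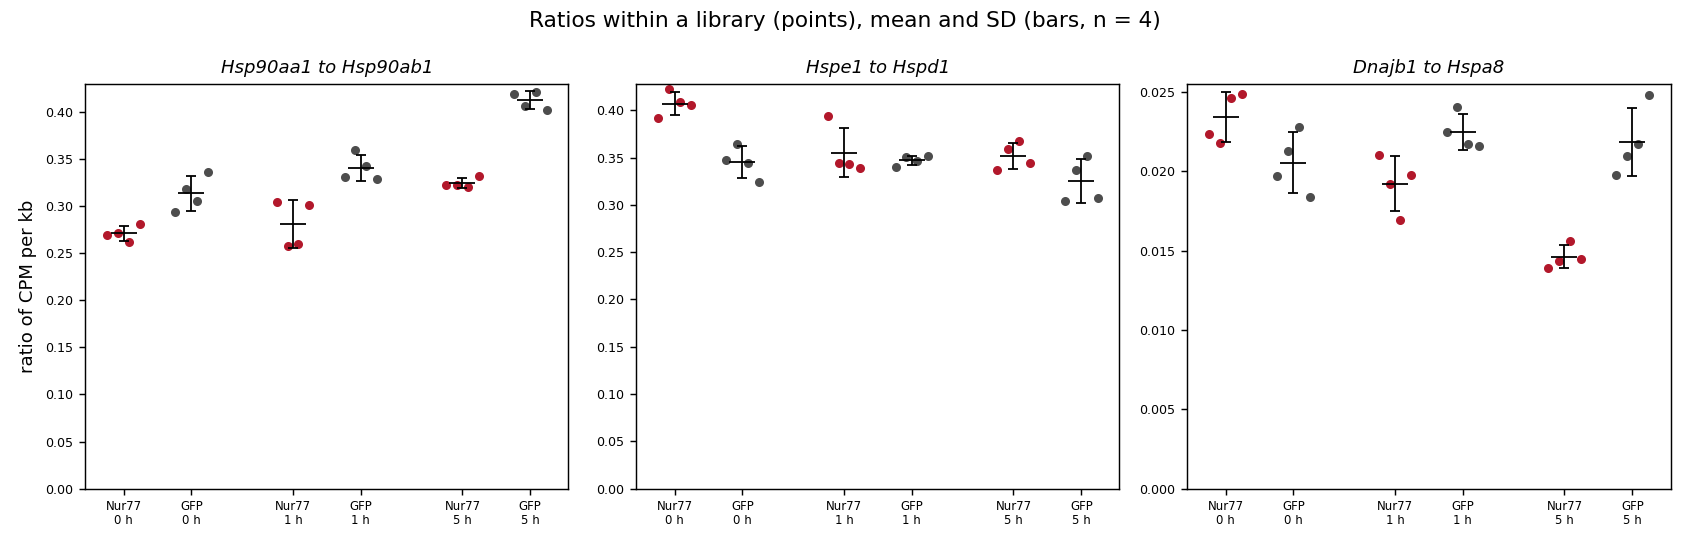
Ratio of 2 genes' CPM per kb within each library (points, Nur77 red, GFP grey), with the mean and SD of 4 libraries (black). The Hsp90aa1 to Hsp90ab1 ratio is lower in Nur77 than in GFP libraries at each time, and the Dnajb1 to Hspa8 ratio in Nur77 cells averages 0.0146 at 5 h, below all other groups.

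Hsp90aa1 lies on chromosome 12, where the median log2 fold change of the 434 other tested genes was -0.41 at 0 h, -0.44 at 1 h and -0.45 at 5 h between Nur77 and GFP cells, against 0.02, 0.0056 and 0.0023 over all genes. Of those 434 genes 65.4%, 63.6% and 68.7% were called lower in Nur77 cells. The values of Hsp90aa1 (-0.35, -0.20 and -0.30) lay between the quartiles of that chromosome's genes at each time. On chromosome 17, which holds Hsp90ab1, Hspa1a and Hspa1b, the medians were 0.06, 0.03 and 0.0002. The LPS responses of chromosome 12 genes did not share its shift between the lines, with medians of -0.04 in Nur77 cells and -0.02 in GFP cells at 5 h against 0 h. The part of the chromosome-wide shift in the Hsp90aa1 difference was not tested.

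**Figure D5:**
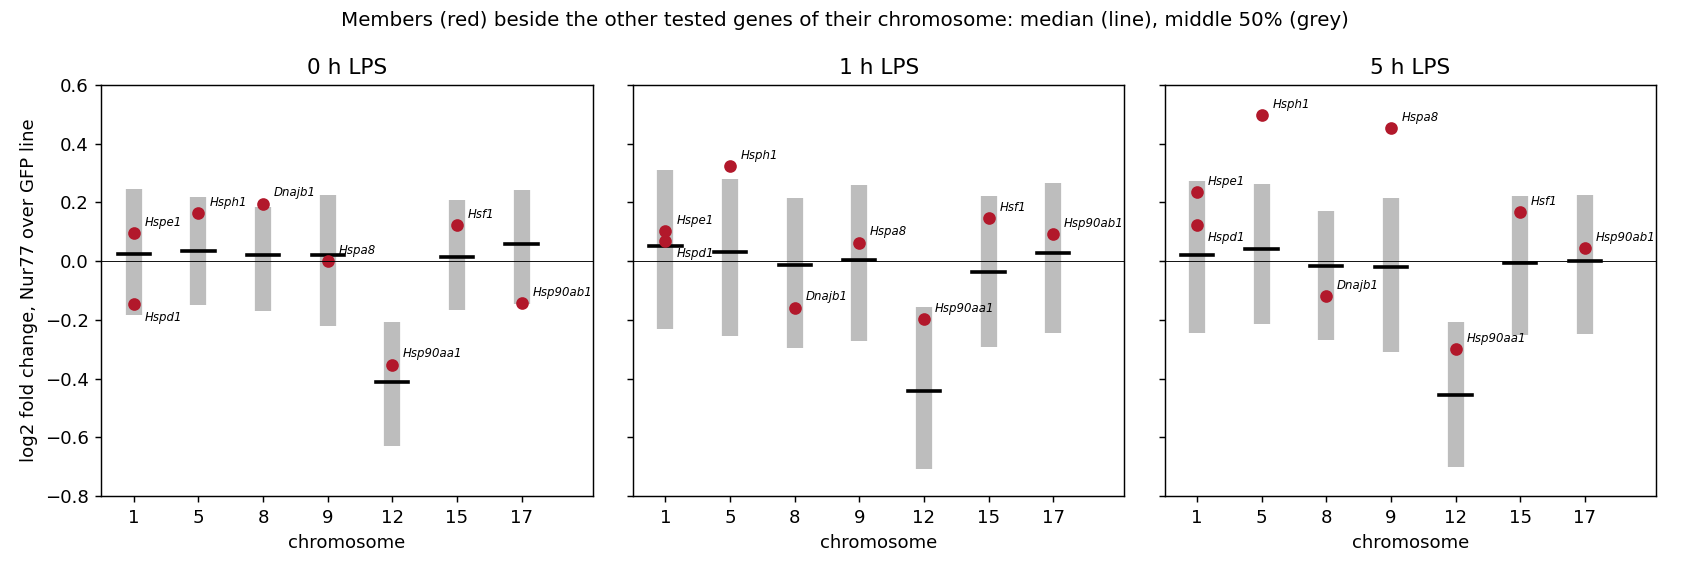
Log2 fold change of Nur77 over GFP cells (vertical axis) for 8 of the tested genes (red), beside the median (line) and middle 50% (grey bar) of the other tested genes on the same chromosome (horizontal axis); Hspa1b, at -0.20, -1.34 and -0.73, is not drawn. Hsp90aa1 sits within the lowered range of chromosome 12, while Dnajb1 at 0 h, Hsph1 at 1 h and 5 h and Hspa8 at 5 h sit above the bar of theirs.

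Related chaperone genes were read beside the 10, and their counts stand beside the shares of all genes called. At 5 h against 0 h these were 32.5% higher and 34.1% lower in Nur77 cells and 30.6% and 31.9% in GFP cells. By library totals, 2057 of the 12213 genes tested were higher and 6770 lower in Nur77 cells, and 2218 and 6272 in GFP cells. Of 21 other textbook heat-inducible HSF1 targets, 18 were tested: 9 rose and 5 fell at 5 h against 0 h in Nur77 cells, and 6 rose and 6 fell in GFP cells, with 6 and 9 and 3 and 9 by library totals. This list shares genes with those described next. Stip1, which bridges Hsp70 and Hsp90, rose at 5 h in both lines (0.87 in Nur77 cells, adjusted p = 2.62e-11, and 0.82 in GFP cells, adjusted p = 7.84e-11). Bag3, an Hsp70 partner in selective autophagy, fell at 5 h in both lines (-0.35, adjusted p = 0.000398, in Nur77 cells and -0.71, adjusted p = 2.52e-08, in GFP cells). The difference of these Bag3 responses was not called (0.35, adjusted p = 0.0529). Mrpl18, a mitochondrial ribosomal protein gene, fell in both lines (-0.87, adjusted p = 8.56e-10, in Nur77 cells and -0.81, adjusted p = 3.34e-09, in GFP cells).

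Among 21 other J-domain genes (20 tested), 14 rose and 1 fell at 1 h in Nur77 cells, and 5 rose and none fell in GFP cells, where 22.5% and 9.74% of all genes rose and 21.8% and 7.63% fell. By library totals it was 9 and 4 in Nur77 cells and 4 and 2 in GFP cells. That scaling called 1300 of the 12213 genes tested higher and 5501 lower in Nur77 cells, and 803 and 2028 in GFP cells. The 1 h responses were not shown to differ between the lines, with 0 of the 20 called (1.18% of all genes). The 5 h responses differed for 6 of the 20, all higher in Nur77 cells (2.81% of all genes higher and 5.13% lower). By library totals 2 of the 20 were called, both higher, where 232 of all genes were higher and 818 lower. Dnajb4 and Dnajb5, cytosolic relatives of Dnajb1, rose at 1 h in both lines, by 1.21 (adjusted p = 1.2e-10) and 1.25 (adjusted p = 1.37e-09) in Nur77 cells and by 1.15 (adjusted p = 4.22e-10) and 1.02 (adjusted p = 3.91e-08) in GFP cells. Dnajc9, a histone co-chaperone, fell at 5 h by 1.19 in Nur77 cells and 1.20 in GFP cells (adjusted p = 2.2e-13 and 2.1e-13). Between the lines Dnajc3, a J-domain protein of the endoplasmic reticulum, was higher in Nur77 cells by 0.79, 0.98 and 0.97 at 0 h, 1 h and 5 h (adjusted p = 4.72e-10, 8.65e-12 and 7.3e-12).

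Of 11 other Hsp70 and Hsp110 genes (10 tested), 4 were higher and 1 lower in Nur77 cells at 0 h, 5 and none at 1 h, and 4 and 1 at 5 h, where 20.2%, 26.5% and 21.9% of all genes were higher and 19.7%, 24.8% and 24.4% lower. By library totals the counts were 4 and none, 5 and 1, and 4 and 1. Hspa5, the Hsp70 of the endoplasmic reticulum known as BiP, had 2744 ± 64.0 CPM in Nur77 cells and 1750 ± 32.5 CPM in GFP cells at 5 h (SD, n = 4 each), a log2 fold change of 0.65 (adjusted p = 6.28e-09). Hspa5 was also higher at 0 h (0.44, adjusted p = 4.9e-06) and at 1 h (0.50, adjusted p = 4.92e-07). Hspa13, a microsomal Hsp70 relative, was higher by 0.89, 0.75 and 0.92 at 0 h, 1 h and 5 h (adjusted p = 4.91e-10, 9.43e-09 and 1.96e-10). Hspa4l, an Hsp110 relative, was lower at 5 h (-0.67, adjusted p = 1.61e-06) and at 0 h (-0.23, adjusted p = 0.0459). The 0 h call of Hspa4l was lost by library totals (-0.18, adjusted p = 0.0818). Its 1 h value was not called (-0.19, adjusted p = 0.0865), but was by library totals (-0.24, adjusted p = 0.0155). The 5 h LPS response differed between the lines for 2 of the 10, both lower in Nur77 cells (2.81% of all genes higher and 5.13% lower). Hspa4l was among them, with a log2 difference of -0.43 (adjusted p = 0.0392) and by library totals of -0.49 (adjusted p = 0.00562).

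Of 17 Hsp90 co-chaperones, 8 rose and 3 fell at 5 h against 0 h in Nur77 cells, and 8 rose and 2 fell in GFP cells, beside 32.5% and 30.6% of all genes higher. By library totals the counts were 6 and 9 in Nur77 cells and 3 and 8 in GFP cells. Under that scaling falls also outnumbered rises over all genes in both lines. Cdc37, which loads kinases onto Hsp90, rose by 0.54 in Nur77 cells (adjusted p = 3.2e-08) and by 0.44 in GFP cells (adjusted p = 8.17e-07). Between the lines 2 were higher and 2 lower in Nur77 cells at 0 h, 9 and 2 at 1 h, and 7 and 2 at 5 h. Of all genes 20.2%, 26.5% and 21.9% were higher and 19.7%, 24.8% and 24.4% lower. By library totals the counts were 7 and 1, 8 and 2, and 7 and 2. That scaling called 3176 of all genes tested higher and 1956 lower at 0 h, 2820 and 3268 at 1 h, and 2663 and 2908 at 5 h. Ahsa1, the activator of the Hsp90 ATPase, was lower in Nur77 cells at 0 h, 1 h and 5 h (-0.43, -0.25 and -0.34, adjusted p = 7.58e-07, 0.000686 and 1.74e-05). It lies on chromosome 12 as Hsp90aa1 does.

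Of 14 TRiC chaperonin and prefoldin genes, which fold actin and tubulin in the cytosol, 11 rose at 5 h against 0 h in Nur77 cells and 10 in GFP cells, with none falling, where 32.5% and 30.6% of all genes rose. By library totals 7 rose and 2 fell in Nur77 cells and 3 rose and 2 fell in GFP cells. Tcp1, a TRiC subunit gene, rose by 0.44 in Nur77 cells (adjusted p = 4.84e-09) and by 0.42 in GFP cells (adjusted p = 1.35e-08). At 1 h 10 of the 14 rose in Nur77 cells (median 0.20; 11 with DESeq2; 22.5% of all genes rose), led by Pfdn2 (0.57, adjusted p = 8.41e-06). In GFP cells 0 of the 14 were called by edgeR (median 0.08; 9.74% of all genes rose), where 4 had an unadjusted p under 0.05, and 3 were called by DESeq2. By library totals 3 rose and 2 fell in Nur77 cells and none was called in GFP cells. A difference of the 1 h responses was called for 1 of the 14 (1.18% of all genes), and of the 5 h responses also for 1 (7.94%). Both times it was Pfdn2 (0.56, adjusted p = 0.0180, and 0.40, adjusted p = 0.0429). The 5 h one was not called by library totals (0.33, adjusted p = 0.0639). Of 15 mitochondrial chaperone and protease genes 6 rose and 2 fell at 5 h in Nur77 cells, and 5 rose and 2 fell in GFP cells (32.5% and 30.6% of all genes rose, 34.1% and 31.9% fell). By library totals 1 rose and 8 fell in Nur77 cells and 1 rose and 9 fell in GFP cells. The balance over all genes turned to falls as well. Of the 12213 genes tested, 2057 were then higher and 6770 lower in Nur77 cells, and 2218 and 6272 in GFP cells. Hspa9, the mitochondrial Hsp70, rose by 0.43 (adjusted p = 1.26e-05) and 0.38 (adjusted p = 6.78e-05), calls lost by library totals (0.12, adjusted p = 0.0809, and 0.13, adjusted p = 0.0611).

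Of 10 small heat shock protein genes 4 passed the filter. Of these 4, none was higher and 1 lower in Nur77 cells at 0 h, 2 and 1 at 1 h, and 1 and 2 at 5 h. The counts were the same by library totals. Of all genes 20.2%, 26.5% and 21.9% were higher and 19.7%, 24.8% and 24.4% lower at these times. Hspb8 was lower in Nur77 cells at each time (-4.54, -3.06 and -2.63; adjusted p = 1.11e-08, 1.64e-07 and 1.86e-07), at 0.0661, 0.193 and 0.366 CPM against 1.78, 1.64 and 2.17 CPM in GFP cells, so the fold rests on very few counts. Hsbp1, whose product binds HSF1 trimers, was lower in Nur77 cells at 0 h (74.8 ± 2.49 against 101 ± 8.85 CPM; -0.43, adjusted p = 4.25e-05) and at 5 h (-0.25, adjusted p = 0.00861). At 1 h Hsbp1 was not called (-0.16, adjusted p = 0.0832), but was by library totals (-0.20, adjusted p = 0.0176). Of the 4 tested genes for heat shock factors and their binding protein, none was higher and 2 lower at 0 h. It was 1 and 1 at 1 h, and none and 2 at 5 h, beside the shares of all genes given above. Of 14 nucleotide exchange factors and other Hsp70 partners, 4 rose and 4 fell at 5 h against 0 h in Nur77 cells, and 3 rose and 4 fell in GFP cells (32.5% and 30.6% of all genes rose, 34.1% and 31.9% fell). By library totals it was 1 and 9, and none and 8. Stub1, the ubiquitin ligase CHIP that tags Hsp70 clients, fell by 0.47 in both (adjusted p = 6.33e-08 and 6.03e-08).

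Likeness of pattern was sought for genes whose group means of log2 CPM spanned at least 1, which Hspa1b alone met (span 2.97). Over the 6 group means, each centred on its own mean, A430093F15Rik, 4930487H11Rik and the growth factor gene Pdgfb were the nearest of the genes tested, at root mean square differences of 0.34, 0.35 and 0.35 on the log2 scale. The likeness covers 6 groups and describes these libraries only.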

How the data were processed

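RNA from 24 samples, isolated with the RNeasy kit and DNase, was made into libraries by an mRNA HyperPrep protocol from KAPA, as the labels describe. The build was mm10, with HISAT2 2.1.0 and CASAVA 1.8.2 among the tools, per the submitters' processing notes; which tool counted reads, with which strand setting and rule for reads matching several places, was not stated. The deposited table holds estimated counts for 42361 RefSeq transcripts, in multiples of 0.5. The transcript with the highest mean stood for each gene (25160 genes), and estimated counts were rounded to whole numbers. edgeR 4.0.16 (R 4.3.3) was run with filterByExpr, TMM and a robust quasi-likelihood fit of 6 group means (18 residual degrees of freedom, common biological coefficient of variation 0.0978), with Benjamini-Hochberg adjustment over 12213 genes, and was tested on simulated data. Libraries held 8137306 to 29279140 counts. Alternatives were DESeq2 1.42.0, its size factors, other filters, the compared groups alone, a replicate block, the mean over transcripts, the summed Hspa1 copies, each library left out and, chosen after seeing the data, library totals with no TMM factors. All 10 genes are named, and of each related list up to 4 genes with the smallest adjusted p in a comparison. The members and lists were chosen with earlier results of these data known. The labels give no batch.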

Additional observations from a re-analysis of the deposited data

Results flagged for a closer look

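In 4 of 57 gene and group sets of 4 libraries, 1 library was flagged as far from the other 3 (its gap to the nearest was above the 95% critical value of Dixon's test, which chance gives in about 1 in 20 sets). They were replicate 4 of GFP cells at 0 h for Hsp90aa1 (1147 CPM) and for Hspd1 (1108 CPM), replicate 1 of GFP cells at 1 h for Hsph1 (177 CPM), and replicate 1 of Nur77 cells at 5 h for Hsph1 (233 CPM). Sets of Hspa1a with a count were among the 57 but were not open to a flag, so 4 of 57 understates the rate. In Nur77 cells at 0 h and at 5 h only 1 library had an Hspa1a count, and these sets also met the criterion. The 5 h LPS response differed between the lines by test for Hspa8 (log2 difference, Nur77 minus GFP, 0.45, adjusted p = 0.0146; 0.39 and not called with library totals in place of TMM, adjusted p = 0.0551) and for Hsph1 (0.33, adjusted p = 0.0136).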

How the results depend on the processing

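Of 1800 recomputed log2 fold changes of the tested genes 1728 kept their call, 36 lost it, 31 gained it and 5 turned direction with a call on one side, all 5 with library totals in place of TMM factors, a setting chosen after seeing the data. These were, at 5 h against 0 h, Hspa8 (-0.24), Hspe1 (-0.20) and Hsph1 (-0.015) in Nur77 cells and Hsp90ab1 (-0.067) and Hspd1 (-0.19) in GFP cells; the scaling itself moved the median of all genes there by its own construction. With library totals the number of genes called at 1 h against 0 h was 1 in each line, against 4 in each, and the number with a different 5 h response 1, against 2. At 0 h between the lines it was 2, 1 with no filter on low counts, and 1 to 4 when 1 library was left out. At 1 h between the lines it was 3, and 3 to 5 when 1 library was left out. The number with a different 1 h response was 0, and 0 to 2 when 1 library was left out. The number with a different 5 h response was 2, 5 in a fit of the groups compared alone (with Dnajb1, Hsp90ab1 and Hspd1), and 2 to 4 when 1 library was left out. With a replicate block, 99 of 99 values kept their call; correlations of same-numbered libraries ran from -0.265 to 0.170 and in no comparison were all 4 above 0.1 (at most 3), so the numbers were not taken to pair samples. Over all genes, the count with a different 1 h response was 144, and 498 with DESeq2, 247 with library totals, 95 with no filter, 47 in the groups alone, 90 with the replicate block and 74 to 1589 when 1 library was left out (the highest without replicate 1 of Nur77 cells at 1 h); for the 5 h response it was 970, and 2084 in the groups alone and 1672 without replicate 2 of Nur77 cells at 1 h; for 1 h against 0 h in Nur77 cells it was 5406, and 3490 in the groups alone. Hsp90aa1 kept a negative and Hsph1 a positive line difference in every alternative run; the causes of the other changes were not tested. Depth limits Hspa1b and leaves Hspa1a untested.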
